A study of Mus musculus with 26 samples.

Results

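The 35 genes described here encode ion channel subunits and gap junction proteins of the heart: 2 sodium channel subunits, 5 calcium channel subunits, 2 pacemaker channels, 21 potassium channel subunits and partners, 3 connexins and 2 TRP cation channels. They were taken from the table of expected counts by gene symbol. They are 35 of its 40413 genes, and all 35 were among the 15543 genes that passed the filter on low counts. The list was chosen with earlier results of these data known. Its shares set against all genes below describe it and do not test it.

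By their labels, the libraries came from polyadenylated RNA of the left ventricle of adult mice. The mice were of 2 inbred strains, the hypertensive BPH/2J and the normotensive BPN/3J. Both strains were given vehicle or Cmpd17b, a small-molecule agonist of formyl peptide receptors, by intraperitoneal injection once a day over 28 days, Cmpd17b at 50 mg/kg/day. The groups were BPN/3J on vehicle (BPN_vehicle, 7 mice), BPN/3J on Cmpd17b (BPN_Cmpd17b, 5 mice), BPH/2J on vehicle (BPH_vehicle, 7 mice) and BPH/2J on Cmpd17b (BPH_Cmpd17b, 7 mice, of which 6 were used). Neither the age in weeks nor what the vehicle contained is stated in the labels used here. Each strain is a single inbred line, so blood pressure and every other inherited difference between the lines cannot be told apart in a strain comparison.

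Total counts per library ran from about 25476100 to about 48648200. By the labels, batch 1 has 20 libraries and batch 2 has 6, and all 5 BPN_Cmpd17b libraries were in batch 1. CPM are counts scaled to the size of the library, with TMM factors. The library labelled BPH_Cmpd17b replicate 7 had 12.4 CPM of the cardiac myosin gene Myh6, against 13442 to 23505 CPM in the other 25. That library had 18930 CPM of the kidney gene Kap, against 0.589 to 125 CPM in the other 25. It was left out of the comparisons. In the other 25 libraries all 10 cardiomyocyte markers checked were present in every group, with summed levels of 55381 to 83904 CPM. BPN_vehicle replicate 7 stood apart from its group. It had the lowest level of the 7 BPN_vehicle libraries for 19 of the 35 genes and the highest for 9, and its endothelial markers summed to 1393 CPM against a group median of 619. Vehicle differences that moved by over 1.5 times when it was left out are given with and without it. In whole-tissue RNA, fewer cells of a type and less RNA per cell cannot be told apart.

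The cardiac action potential is shaped by the order in which these channels open. Sodium channels drive the upstroke, L-type calcium channels carry the plateau current that triggers contraction, and several potassium currents repolarise the cell: the transient outward current early, delayed rectifiers later, and inward rectifiers at rest. In the mouse ventricle the fast transient outward current, formed by Kv4 subunits with KChIP2, takes a large share of repolarisation. Connexins join neighbouring cells electrically at the intercalated disc.

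RefSeq promoter entries (build GRCm38.p6) were matched by symbol for 25 of the 35 genes, with 32 start sites in all. The 250 bases before the annotated start are printed for 4 genes to which the strain comparison below returns: Cacna2d1 and Kcnd2, which were higher in BPH/2J, and Kcnd3 and Kcnj8, which were lower. These 4 were picked by hand and do not stand for all called genes. The letters are given 5′ to 3′ on the strand of the gene, and capitals mark GGGCGG, the GC box, on either strand (CCGCCC where it lies on the other strand).
Cacna2d1 (chr5:15934441-15934690, plus strand): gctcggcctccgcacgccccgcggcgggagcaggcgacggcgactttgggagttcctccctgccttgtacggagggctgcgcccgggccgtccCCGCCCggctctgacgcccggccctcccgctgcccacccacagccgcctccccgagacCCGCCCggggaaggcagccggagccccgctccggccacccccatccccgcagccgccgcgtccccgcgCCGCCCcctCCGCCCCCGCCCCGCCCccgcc
Kcnd2 (chr6:21215096-21215345, plus strand): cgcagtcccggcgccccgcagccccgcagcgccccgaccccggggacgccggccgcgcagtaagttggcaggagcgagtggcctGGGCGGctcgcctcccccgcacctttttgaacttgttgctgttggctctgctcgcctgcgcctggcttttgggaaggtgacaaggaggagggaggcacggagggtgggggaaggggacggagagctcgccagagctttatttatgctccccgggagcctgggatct
Kcnd3 (chr3:105451640-105451889, plus strand): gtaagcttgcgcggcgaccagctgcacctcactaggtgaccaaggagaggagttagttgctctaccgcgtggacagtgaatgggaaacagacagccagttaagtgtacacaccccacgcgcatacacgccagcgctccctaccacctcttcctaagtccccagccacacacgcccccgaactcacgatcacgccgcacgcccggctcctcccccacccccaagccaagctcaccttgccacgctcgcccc
Kcnj8 (chr6:142571615-142571864, minus strand): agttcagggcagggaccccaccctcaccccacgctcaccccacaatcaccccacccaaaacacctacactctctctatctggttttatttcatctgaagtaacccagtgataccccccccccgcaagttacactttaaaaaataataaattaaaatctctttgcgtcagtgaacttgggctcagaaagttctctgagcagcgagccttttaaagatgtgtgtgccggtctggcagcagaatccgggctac

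The Cacna2d1 window was 82.4% G and C and held 6 GC boxes, the last 4 of them within its final stretch before the start site. Kcnd2 had 68.8% G and C and 1 GC box, Kcnd3 had 62.8% and none, and Kcnj8 had 49.2% and none. The windows of Scn4b, Kcnj12 and Gja1, all called higher under vehicle, held none, and 1 of the Cacna1c windows, a gene that was not called, held 6 at 82.8% G and C. Over all 32 entries of the 35 genes the median was 59.4%, against 52.4% over the 32851 promoters in the table. The GC box was in 15 of the 32 entries (46.9%) and in 32.7% of all promoters. The E-box CACGTG was in 4 of 32 (12.5%) against 6.02% of all, and the GATA motif AGATAA in 1 of 32, that of Gja1, against 9.99% of all. The TATA box TATAAA (12.4% of all promoters), the CRE TGACGTCA (1.55%), the T-box GGTGTGA (3.33%), the NKX2-5 motif CACTTGA (2.68%) and the MEF2 motif (1.69%) were in none of the 32. Both strands were searched for every motif. These matches describe letters in the window only.

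Under vehicle, 16 of the 35 genes differed between the strains, 13 of them higher and 3 lower in BPH/2J. A gene is called where the quasi-likelihood test of edgeR, adjusted over all genes, gives p under 0.05. That is 45.7% of the 35 genes, where 18.9% of all 15543 genes tested were called (9.16% higher and 9.73% lower). The genes that rose were Kcnab1, Kcne1, Scn4b, Cacna2d1, Kcna4, Kcnj5, Kcnj12, Abcc8, Gja5, Kcnd2, Gja1, Kcnk3 and Kcnh2, and those that fell were Kcnv2, Kcnd3 and Kcnj8. The median log2 difference of the 35 genes was 0.21, against -0.00076 over all genes tested, and 26 of the 35 differences were positive. Without BPN_vehicle replicate 7 the call was made for 20 of 35 genes, 15 higher and 5 lower, against 24.2% of all genes. Without BPH_vehicle replicate 7 it was made for 10 (28.6%) against 18% of all genes. With only batch 1 it was made for 8 genes against 15.6% of all genes, and with only batch 2 for 6 against 7.88%. When the kidney-like library was kept in the fit only Kcne1 and Kcnab1 were called, which is 5.71% of the 35 genes against 9.59% of all genes. There the share among the 35 genes was below that of all genes, and this setting ended every other call given below for the vehicle-treated mice.

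Between the strains on Cmpd17b, 8 of the 35 genes differed (22.9%), where 14.1% of all genes tested were called (7.48% higher and 6.65% lower). Kcnab1, Kcne1, Abcc8 and Cacna2d1 were higher in BPH/2J and Kcnv2, Kcna7, Kcnd3 and Kcnj8 were lower. The mice on Cmpd17b are other animals than those on vehicle, although the fit shares its batch term and its estimate of spread between them. Of the 16 genes called under vehicle, 7 were called again in the mice on Cmpd17b, all with the same sign, which is 43.8% of the vehicle calls and 87.5% of the Cmpd17b calls. Over all genes the corresponding shares were 57.4% and 76.7%. Of the 16 genes, 15 had the same sign in both comparisons (93.8%), the exception being Kcna4, against 97.4% of all genes called under vehicle. With the 23 libraries that also leave out BPN_vehicle replicate 7 and BPH_Cmpd17b replicate 6, 14 genes were called on Cmpd17b against 19.1% of all genes, the added ones being Kcnh2, Kcnj5, Kcnj11, Kcnj12, Kcnk3 and Trpm4. Batch 1 alone called 8 against 12.7% of all genes. With the kidney-like library kept only Kcne1 was called, 2.86% of the 35 genes against 7.68% of all genes.

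**Figure D1:**
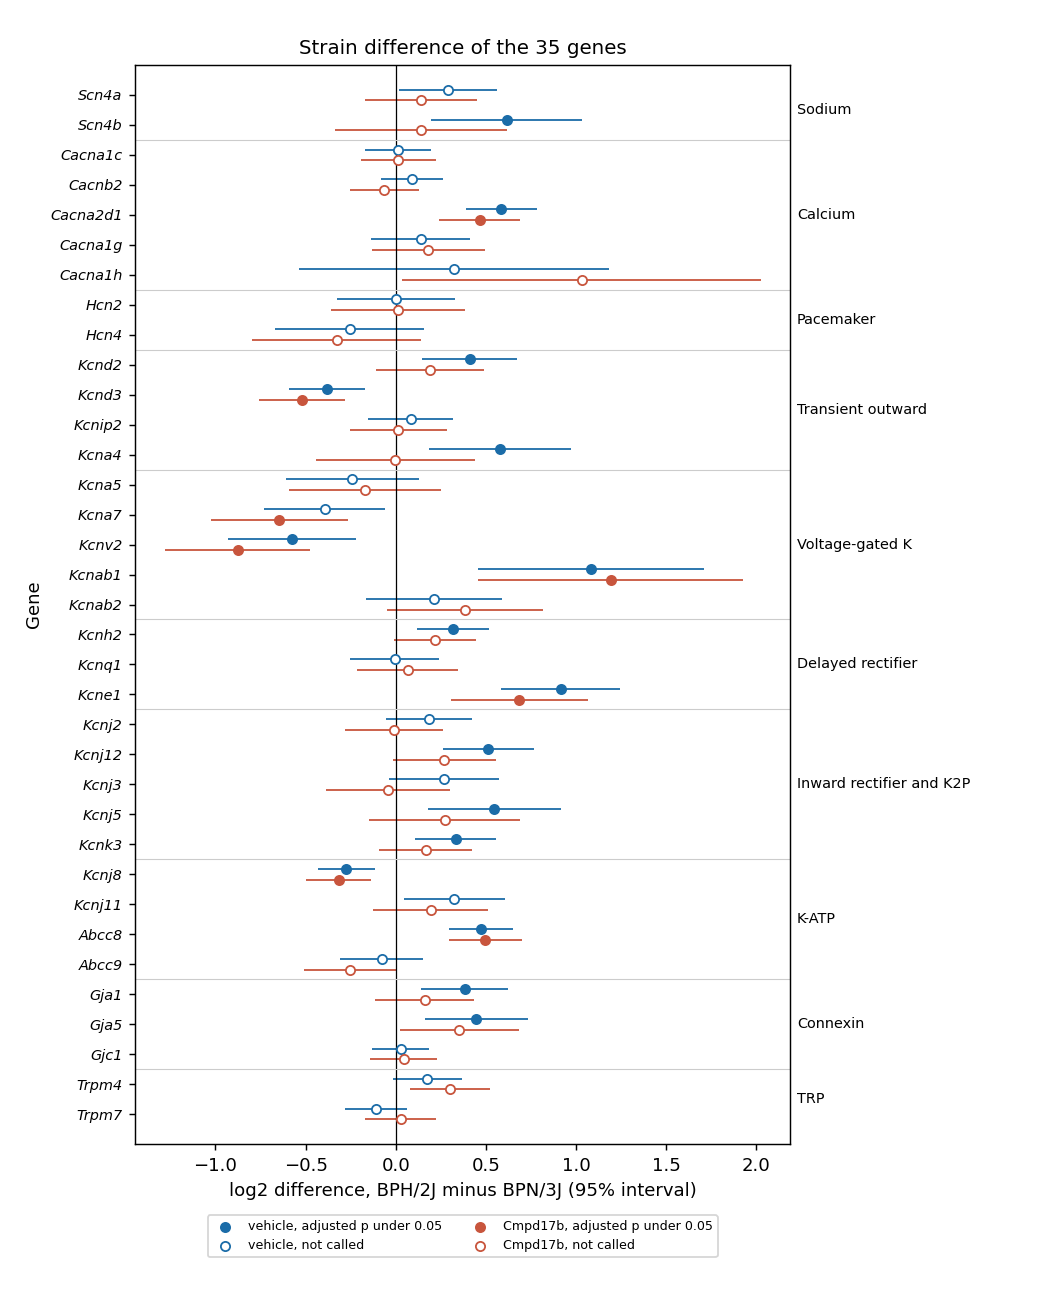
Log2 difference in level between BPH/2J and BPN/3J for each of the 35 genes (vertical axis, grouped by current), with 95% intervals, in mice on vehicle (blue) and on Cmpd17b (red). Filled points passed adjusted p under 0.05. There are 16 filled points under vehicle, 13 to the right of 0, and 8 on Cmpd17b, 4 on either side.

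Scn4b, which encodes a beta subunit that modulates gating of the cardiac sodium channel, ran at 24.7 to 112 (median 87.6) CPM in BPN_vehicle and at 95.2 to 165 (median 137) CPM in BPH_vehicle. Of the 7 BPH_vehicle libraries 5 lay above every BPN_vehicle library, so the groups overlapped. The log2 difference was 0.61 ± 0.20 (SE, 1.53-fold, adjusted p = 0.0352), and 0.44 (adjusted p = 0.00489) without BPN_vehicle replicate 7, whose level was 24.7 CPM. The call ended when any of BPH_vehicle replicate 3, 4, 5 or 6 or BPN_vehicle replicate 3 was left out (log2 differences 0.55 to 0.61, adjusted p from 0.0528 to 0.0761), and with no filter, in batch 2 alone and with only the compared groups fitted (log2 differences 0.16 to 0.62, adjusted p from 0.0842 to 0.534). On Cmpd17b the 5 BPN/3J mice had 99.6, 106, 108, 110.4 and 144 CPM and the BPH/2J mice 89.1 to 149 (median 122) CPM, and the difference was 0.14 ± 0.23 (adjusted p = 0.779). Scn4a, the pore-forming sodium channel subunit best known from skeletal muscle, ranged from 16.0 to 44.9 CPM over the 25 libraries. Its strain difference was 0.29 ± 0.13 under vehicle (adjusted p = 0.138) and 0.14 ± 0.15 on Cmpd17b (adjusted p = 0.632), and neither passed the test.

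Of the 5 calcium channel genes, the auxiliary subunit Cacna2d1 was called, and the pore-forming subunit it accompanies was not. Cacna2d1 encodes the alpha-2-delta subunit that brings the L-type channel to the cell surface. Its level was 40.5 to 88.7 (median 64.5) CPM in BPN_vehicle and 84.2 to 132 (median 97) CPM in BPH_vehicle. The groups overlapped only through the 2 highest BPN_vehicle libraries, since 5 of 7 BPH_vehicle libraries were above them all. The log2 difference was 0.59 ± 0.10 (1.501-fold, adjusted p = 3.49e-05). On Cmpd17b the BPN/3J mice had 58.3, 62.7, 72.5, 75.5 and 81.9 CPM and the BPH/2J mice 90.5 to 116 (median 101) CPM. There the groups did not overlap, as for 5 of the 35 genes (with Kcnd3, Kcnv2, Kcna7 and Kcnj8) and 12.6% of all genes tested. The difference was 0.47 ± 0.11 (1.38-fold, adjusted p = 0.00328). 

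Cacna1c, the pore of the L-type channel, ran at 188 to 276 (median 224) CPM in BPN_vehicle, 209 to 268 (median 226) CPM in BPH_vehicle and 209 to 251 (median 234) CPM in BPH_Cmpd17b. The 5 BPN_Cmpd17b libraries had 204, 216, 223, 250.2 and 259 CPM. The 4 groups overlapped throughout, and the strain difference was 0.01 ± 0.09 under vehicle, with a 95% interval of -0.17 to 0.19, and 0.01 ± 0.10 on Cmpd17b (interval -0.19 to 0.22). Cacnb2, the beta subunit of the same channel, differed by 0.09 ± 0.08 under vehicle and -0.06 ± 0.09 on Cmpd17b, and neither passed the test. The T-type channel gene Cacna1g, between 5.54 and 13.1 CPM, differed by 0.14 ± 0.13 and 0.18 ± 0.15. The T-type gene Cacna1h was close to the lower end of the table, and BPN_vehicle replicate 7, at 1.64 CPM against a group median of 0.313, set its vehicle comparison: the log2 difference was 0.32 ± 0.42 (adjusted p = 0.658) with that library and 0.97 (adjusted p = 0.0484) without it.

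Neither pacemaker channel was called. Hcn2, the HCN form of working ventricular muscle, ranged from 10.4 to 30.7 CPM with strain differences of 0.00252 ± 0.16 and 0.01 ± 0.18. The Hcn2 vehicle value without BPN_vehicle replicate 7, its lowest library, was -0.12 (adjusted p = 0.524). Hcn4, the main pacemaker channel of the sinus node and conduction system, ranged from 2.42 to 9.85 CPM. It differed by -0.25 ± 0.20 under vehicle (adjusted p = 0.432) and by -0.33 ± 0.23 on Cmpd17b (adjusted p = 0.415), and without BPN_vehicle replicate 7 the vehicle value was -0.41 (adjusted p = 0.0332). The 8 conduction system markers checked, all above 0 in every group, summed to a median of 66.1 CPM in BPN_vehicle (53.6 to 75.1), 61.9 in BPN_Cmpd17b (59.3 to 68.2), 50.4 in BPH_vehicle (47.7 to 56.6) and 48.95 in BPH_Cmpd17b (43.8 to 55.0). The gap between the vehicle sums was mostly Irx3, with medians of 32.9 CPM in BPN_vehicle and 17.9 CPM in BPH_vehicle. Of the 7 tested, Irx3 was called lower and Slit2 higher in both strain comparisons. The median log2 difference of these 7 was -0.098 under vehicle and -0.22 on Cmpd17b. Because Irx3 is the largest part of these sums, they say little about the other markers. Besides Irx3, the medians of Tbx3, Id2, Cntn2, Cpne5 and Cacna2d2 were lower in BPH_vehicle than in BPN_vehicle. Those of Etv1 and Slit2 were higher. The part of these markers in the Hcn4 value was not tested.

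Of the fast transient outward current genes, Kcnd2 was called higher in BPH/2J under vehicle, Kcnd3 was called lower in both strain comparisons, and their partner Kcnip2 was called in neither. Kcnd2 and Kcnd3 encode Kv4.2 and Kv4.3, the pores of the fast transient outward current. Kcnd2 had 6.33 to 16.3 (median 13.2) CPM in BPN_vehicle and 12.7 to 22.5 (median 16.9) CPM in BPH_vehicle. The groups overlapped, with 5 of 7 BPH_vehicle libraries above all of BPN_vehicle, and the log2 difference was 0.41 ± 0.13 (1.33-fold, adjusted p = 0.0240). Without BPN_vehicle replicate 7, at 6.33 CPM, it was 0.30 (adjusted p = 0.0188). It was no longer called when any of BPH_vehicle replicate 6 or 7 or BPN_vehicle replicate 2 was left out (log2 differences 0.36 to 0.38, adjusted p from 0.0518 to 0.0648), and in batch 1 alone, in batch 2 alone and with only the compared groups fitted (log2 differences 0.40 to 0.42, adjusted p from 0.0794 to 0.227). In the mice on Cmpd17b, 13.1, 13.6, 14.5, 14.6 and 15.3 CPM stood against 13.3 to 19.3 (median 17.1) CPM, a difference of 0.19 ± 0.15 that did not pass the test (adjusted p = 0.466).

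Kcnd3 was lower in BPH/2J, at 7.29 to 10.9 (median 7.94) CPM in BPH_vehicle against 9.46 to 13.3 (median 12.4) CPM in BPN_vehicle. The lowest 4 BPH_vehicle libraries lay below every BPN_vehicle library and the other 3 did not. The log2 difference was -0.38 ± 0.10 (0.768 times the BPN/3J level, adjusted p = 0.00785), and batch 2 alone gave -0.21 (adjusted p = 0.659). In the BPN/3J mice on Cmpd17b the levels were 12.1, 13.2, 13.2, 13.5 and 13.6 CPM and in the BPH/2J mice 8.01 to 10.1 (median 9.24) CPM. These groups did not overlap, and the difference was -0.52 ± 0.12 (0.697 times, adjusted p = 0.00185). Kcnd3 shares 2.17% of its exon bases with the antisense gene Kcnd3os in GENCODE M21. Whether the counting used strand is not stated in the labels, so reads there could come from either gene.

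Kcnip2, which encodes KChIP2, the calcium-binding partner of both Kv4 pores, ranged from 106 to 231 CPM. Its strain difference was 0.08 ± 0.11 under vehicle (95% interval -0.15 to 0.32) and 0.01 ± 0.13 on Cmpd17b (interval -0.25 to 0.28), and neither passed the test. Kcna4, the pore of the slow transient outward current, had 1.04 to 2.49 (median 2.06) CPM in BPN_vehicle and 1.92 to 4.21 (median 3.17) CPM in BPH_vehicle. The groups overlapped, with 4 of 7 BPH_vehicle libraries above all of BPN_vehicle, and the difference was 0.58 ± 0.19 (adjusted p = 0.0322). The call ended when any of BPH_vehicle replicate 1, 2, 4 or 7 or BPN_vehicle replicate 2, 4, 6 or 7 was left out (log2 differences 0.45 to 0.58, adjusted p from 0.0508 to 0.109), and with limma voom, in batch 1 alone, in batch 2 alone and with only the compared groups fitted (log2 differences 0.46 to 0.60, adjusted p from 0.0544 to 0.310). On Cmpd17b the BPN/3J mice had 1.85, 2.37, 2.61, 2.95 and 3.01 CPM, the BPH/2J mice 1.92 to 3.24 (median 2.60) CPM, and the difference was -0.00131 ± 0.22.

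**Figure D2:**
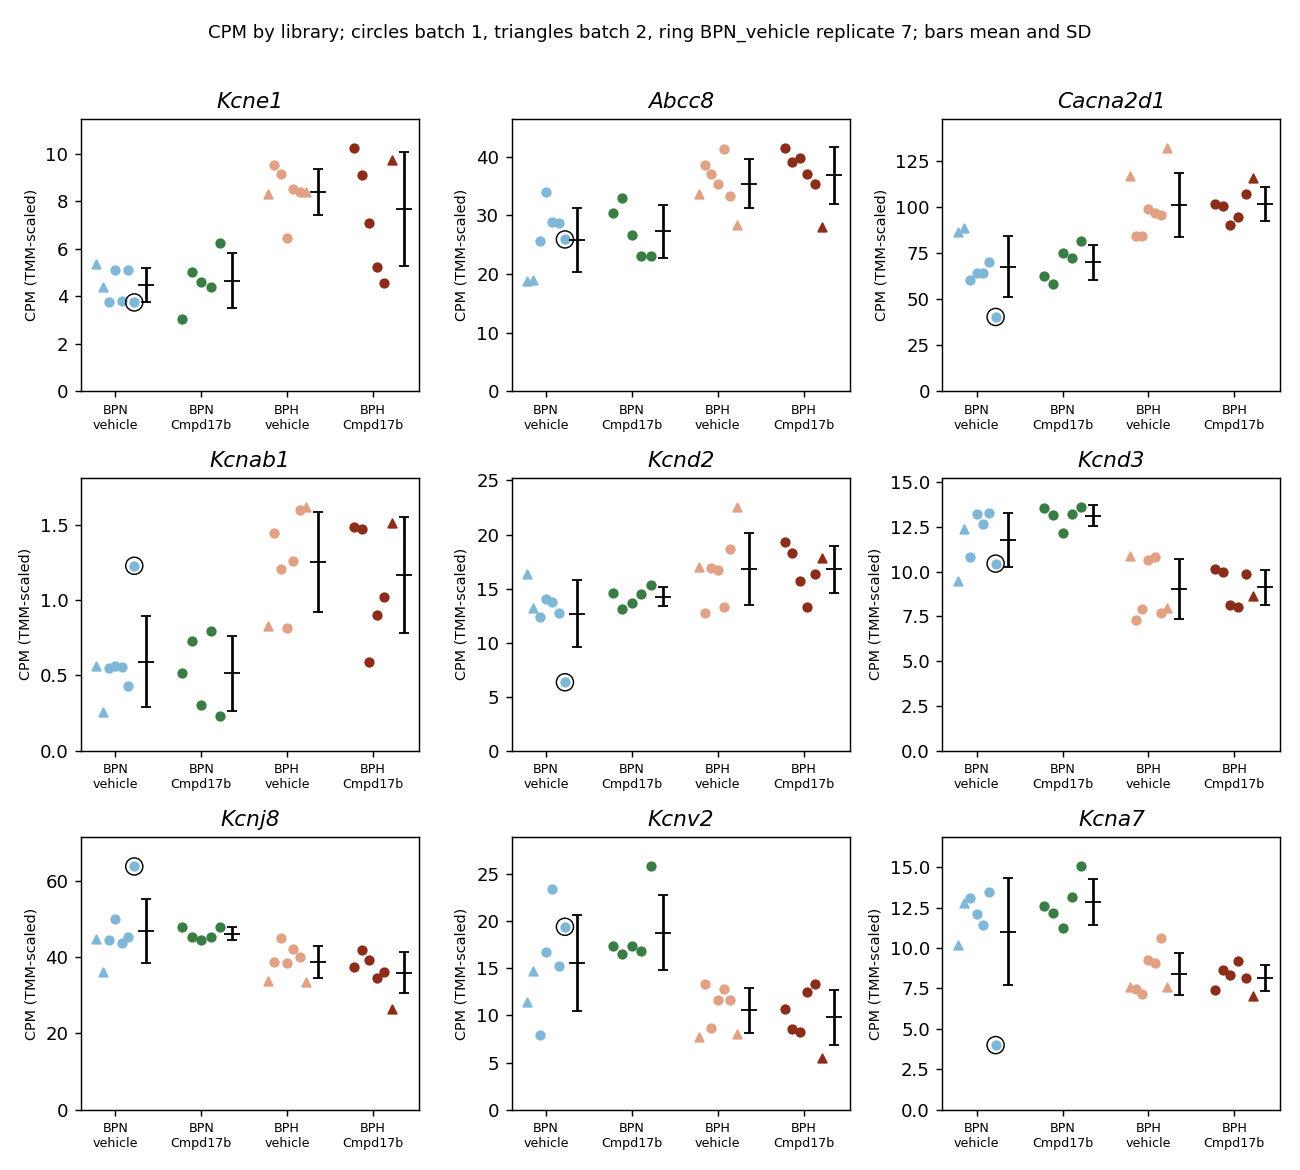
TMM-scaled CPM (vertical axis, from 0) of 9 genes in each library of the 4 groups (horizontal axis). Circles are batch 1, triangles batch 2, the ring marks BPN_vehicle replicate 7, and bars give the group mean and SD. Kcne1, Abcc8, Cacna2d1, Kcnab1 and Kcnd2 sit higher in the BPH/2J groups and Kcnd3, Kcnj8, Kcnv2 and Kcna7 sit lower, and only Kcne1 separates the vehicle groups with no overlap.

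Among the Kv1 genes other than Kcna4, and their partners, Kcnab1 was higher in BPH/2J in both strain comparisons and Kcna7 was lower on Cmpd17b, while Kcnv2, a partner of Kv2 channels, was lower in both. Kcna5 (Kv1.5, a pore of the ultrarapid delayed rectifier) had 11.9 to 27.6 (median 16.5) CPM in BPN_vehicle, 12.7 to 16.6 (median 15.8) CPM in BPH_vehicle, 11.6, 13.05, 13.9, 18.96 and 23.7 CPM in BPN_Cmpd17b and 10.4 to 19.5 (median 14.4) CPM in BPH_Cmpd17b. The groups overlapped, and its differences of -0.24 ± 0.18 and -0.17 ± 0.20 did not pass the test. Kcnv2 encodes a silent subunit that does not form channels alone and alters those of Kv2. It had 7.87 to 23.4 (median 15.3) CPM in BPN_vehicle and 7.71 to 13.3 (median 11.6) CPM in BPH_vehicle, groups that overlapped, with a log2 difference of -0.58 ± 0.17 (0.671 times, adjusted p = 0.0193). It was no longer called when any of BPN_vehicle replicate 2 or 5 was left out (log2 differences -0.51 to -0.48, adjusted p from 0.0514 to 0.0568), and with no filter, without the batch term and in batch 1 alone (log2 differences -0.57 to -0.51, adjusted p from 0.0502 to 0.108). The BPN/3J mice on Cmpd17b had 16.5, 16.8, 17.3, 17.4 and 25.8 CPM and the BPH/2J mice 5.44 to 13.3 (median 9.61) CPM, with no overlap, and the difference was -0.88 ± 0.20 (0.544 times, adjusted p = 0.00212).

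Kcna7, which encodes the Kv1.7 pore, was called in the mice on Cmpd17b. There the BPN/3J mice had 11.2, 12.1, 12.6, 13.2 and 15.0 CPM and the BPH/2J mice 7.01 to 9.19 (median 8.25) CPM, all lower, and the difference was -0.65 ± 0.18 (0.639 times, adjusted p = 0.0162). Without BPN_Cmpd17b replicate 5 it was -0.58 (adjusted p = 0.0511). Under vehicle the levels were 3.997 to 13.5 (median 12.1) CPM and 7.13 to 10.6 (median 7.61) CPM, with the lowest of all libraries, 3.997 CPM, in BPN_vehicle replicate 7. The vehicle difference was -0.39 ± 0.16 (adjusted p = 0.0942) with that library and -0.55 (adjusted p = 1.81e-05) without it.

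Kcnab1 encodes a cytoplasmic beta subunit that speeds inactivation of Kv1 channels, and it had the largest log2 difference of the 35 genes in either strain comparison, at a low level. It had 0.253 to 1.23 (median 0.558) CPM in BPN_vehicle and 0.817 to 1.62 (median 1.26) CPM in BPH_vehicle. BPN_vehicle replicate 7 alone, at 1.23 CPM, made the groups overlap, and the difference was 1.08 ± 0.31 (2.12-fold, adjusted p = 0.0115), or 1.36 (adjusted p = 7.33e-04) without that library. The call ended in batch 1 alone and in batch 2 alone (log2 differences 0.93 to 1.58, adjusted p from 0.0735 to 0.139). On Cmpd17b the BPN/3J mice had 0.231, 0.304, 0.512, 0.728 and 0.794 CPM and the BPH/2J mice 0.589 to 1.51 (median 1.25) CPM, which overlapped through 1 BPH/2J library, and the difference was 1.19 ± 0.36 (2.28-fold, adjusted p = 0.0222). That call ended when any of BPH_Cmpd17b replicate 1 or 2 or BPN_Cmpd17b replicate 3 or 5 was left out (log2 differences 1.005 to 1.11, adjusted p from 0.0521 to 0.0744). Kcnab1 shares 3.64% of its exon bases with the antisense gene A330015K06Rik. Kcnab2, the second beta subunit of the set, ranged from 1.02 to 2.18 CPM and differed by 0.21 ± 0.18 and 0.39 ± 0.21, neither past the test.

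In the slow delayed rectifier the accessory subunit Kcne1 rose in BPH/2J, and its pore Kcnq1 was not called. Kcne1, which slows opening of the KCNQ1 channel, had 3.74 to 5.36 (median 4.37) CPM in BPN_vehicle and 6.46 to 9.52 (median 8.40) CPM in BPH_vehicle. The vehicle groups did not overlap, as was the case for 2 of the 35 genes (Kcne1 and Kcnj12) and for 6.36% of all genes tested. The log2 difference was 0.92 ± 0.16 (1.89-fold, adjusted p = 8.89e-05), and the call held under every alternative run for that comparison. In the mice on Cmpd17b the BPN/3J libraries had 3.05, 4.41, 4.60, 5.03 and 6.24 CPM and the BPH/2J libraries 4.58 to 10.2 (median 8.09) CPM. Of these 6 BPH/2J libraries 4 lay above all BPN/3J libraries, and the difference was 0.69 ± 0.18 (1.61-fold, adjusted p = 0.0103). It ended with only the compared groups fitted (log2 difference 0.64, adjusted p = 0.0933).

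Kcnq1 had 15.8 to 36.7 (median 35.7) CPM in BPN_vehicle, 27.1 to 33.9 (median 31.1) CPM in BPH_vehicle, 30.3, 31.9, 32.1, 33.7 and 40.7 CPM in BPN_Cmpd17b and 32.4 to 37.9 (median 34.8) CPM in BPH_Cmpd17b. These groups overlapped, and its strain differences were -0.01 ± 0.12 (95% interval -0.25 to 0.24) and 0.07 ± 0.14 (interval -0.22 to 0.35). Kcnq1 shares 3.99% of its exon bases with the antisense RNA gene Kcnq1ot1. Kcnh2, the pore of the rapid delayed rectifier, had 45.6 to 73.6 (median 59.4) CPM in BPN_vehicle and 63.3 to 79.9 (median 70.7) CPM in BPH_vehicle. The groups overlapped, with 2 of 7 BPH_vehicle libraries above all of BPN_vehicle, and the difference was 0.32 ± 0.10 (1.25-fold, adjusted p = 0.0202). It was no longer called without BPH_vehicle replicate 7 (log2 difference 0.27, adjusted p = 0.0577), and without the batch term, in batch 1 alone and in batch 2 alone (log2 differences 0.26 to 0.46, adjusted p from 0.05003 to 0.109). On Cmpd17b, 59.8, 64.3, 64.7, 66.9 and 73.1 CPM stood against 47.3 to 91.3 (median 75.1) CPM, with a difference of 0.22 ± 0.11 (adjusted p = 0.219).

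Kcnj2 and Kcnj12 encode Kir2.1 and Kir2.2, pores of the inward rectifier that holds the resting potential. Kcnj12 rose from 9.88 to 23.8 (median 21.0) CPM in BPN_vehicle to 26.5 to 32.4 (median 28.2) CPM in BPH_vehicle, with no overlap. The difference was 0.51 ± 0.12 (1.43-fold, adjusted p = 0.00277), and 0.40 (adjusted p = 1.59e-04) without BPN_vehicle replicate 7, whose level was 9.88 CPM. Cmpd17b-treated BPN/3J mice had 19.8, 22.8, 24.9, 26.3 and 27.9 CPM and the BPH/2J mice 24.3 to 32.0 (median 30.1) CPM. The difference there, 0.27 ± 0.14, did not pass the test (adjusted p = 0.228), and in the 23 libraries it was 0.33 (adjusted p = 0.00129). Kcnj2 had 20.5 to 41.6 (median 38.5) CPM in BPN_vehicle, 35.95 to 43.4 (median 40.5) CPM in BPH_vehicle, 37.6, 39.8, 41.5, 47.1 and 47.4 CPM in BPN_Cmpd17b and 30.2 to 47.9 (median 43.9) CPM in BPH_Cmpd17b. The groups overlapped, and its differences were 0.18 ± 0.12 (adjusted p = 0.302) and -0.01 ± 0.13 (adjusted p = 0.972). Without BPN_vehicle replicate 7, at 20.5 CPM, the vehicle difference was 0.08 (adjusted p = 0.522).

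Kcnj3 and Kcnj5 encode the partners of the acetylcholine-activated inward rectifier, known mainly from the atria and the pacemaker. Kcnj5 had 16.8 to 67.3 (median 56.0) CPM in BPN_vehicle and 67.2 to 87.4 (median 75.7) CPM in BPH_vehicle. All but 1 of the BPH_vehicle libraries lay above all of BPN_vehicle, and the difference was 0.55 ± 0.18 (1.46-fold, adjusted p = 0.0311). Without BPN_vehicle replicate 7, at 16.8 CPM, it was 0.39 (adjusted p = 7.67e-04). The call ended when any of BPH_vehicle replicate 4 or 7 or BPN_vehicle replicate 3 was left out (log2 differences 0.51 to 0.52, adjusted p from 0.0590 to 0.0630), and with no filter, in batch 1 alone, in batch 2 alone and with only the compared groups fitted (log2 differences 0.45 to 0.59, adjusted p from 0.0686 to 0.0866). On Cmpd17b 55.2, 60.8, 62.5, 63.9 and 68.2 CPM stood against 50.3 to 87.5 (median 78.0) CPM, a difference of 0.27 ± 0.20 (adjusted p = 0.454), and in the 23 libraries of 0.35 (adjusted p = 0.00217). Kcnj3 ranged from 23.4 to 73.1 CPM, both ends in vehicle groups (BPN_vehicle replicate 7 and BPH_vehicle replicate 7), and differed by 0.27 ± 0.15 and -0.04 ± 0.17, neither past the test. Its vehicle difference without BPN_vehicle replicate 7 was 0.14 (adjusted p = 0.357). Of the Kcnj3 exon bases 31.1% are shared with the antisense gene Gm26794, so its counts are the least certain of the set in this respect.

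The 6 atrial markers checked summed to a median of 337 CPM in BPN_vehicle (172 to 882), 198 in BPN_Cmpd17b (79.8 to 205), 507 in BPH_vehicle (334 to 1121, the highest in replicate 7) and 602 in BPH_Cmpd17b (459 to 2562, the highest in replicate 6). These sums were mostly Nppa, the atrial natriuretic peptide gene, with medians of 499 CPM in BPH_vehicle and 594 CPM in BPH_Cmpd17b. BPH_vehicle replicate 7 also had the highest level of its group for Myl7 (68.8 CPM, median 0.0688), Myl4 (127 CPM, median 4.52) and Sln (18.8 CPM, median 0.0994). In BPH_Cmpd17b replicate 6 the sum was almost all Nppa, at 2546 CPM, and no library of that group had more than 1.18 CPM of Myl7 or 0.728 CPM of Sln. The Dkk3 level of replicate 6, 12.3 CPM against a group median of 3.71, was the highest of the group. Bmp10 was at 0 in both BPH/2J groups. Of the 3 that could be tested, Dkk3 and Myl4 were called higher in BPH/2J under vehicle and Dkk3 and Nppa on Cmpd17b. The part of atrial RNA in the Kcnj3, Kcnj5 and Gja5 values was not tested.

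Kcnk3 encodes TASK-1, a background potassium channel. It had 121 to 245 (median 197) CPM in BPN_vehicle and 224 to 313 (median 251) CPM in BPH_vehicle, overlapping groups, and differed by 0.33 ± 0.11 (1.26-fold, adjusted p = 0.0310). Without BPN_vehicle replicate 7, at 121 CPM, it was 0.23 (adjusted p = 0.0116). It was no longer called when any of BPH_vehicle replicate 1, 5 or 7 or BPN_vehicle replicate 3 was left out (log2 differences 0.29 to 0.33, adjusted p from 0.0518 to 0.0813), and without the batch term, in batch 1 alone, in batch 2 alone and with only the compared groups fitted (log2 differences 0.33 to 0.34, adjusted p from 0.0616 to 0.151). On Cmpd17b 209.6, 239, 241, 252 and 264 CPM stood against 191 to 292 (median 278) CPM, and the difference was 0.17 ± 0.12 (adjusted p = 0.458).

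The KATP channels, which open when ATP falls, pair a Kir6 pore with a sulfonylurea receptor. The receptor gene Abcc8 (SUR1) rose, the pore gene Kcnj8 (Kir6.1) fell, and the pore Kcnj11 (Kir6.2) and receptor Abcc9 (SUR2) were not called. Abcc8 had 18.9 to 33.9 (median 25.9) CPM in BPN_vehicle and 28.4 to 41.3 (median 35.4) CPM in BPH_vehicle. The groups overlapped, with 4 of 7 BPH_vehicle libraries above all of BPN_vehicle, and the difference was 0.47 ± 0.09 (1.39-fold, adjusted p = 1.53e-04). On Cmpd17b the BPN/3J mice had 23.04, 23.1, 26.7, 30.5 and 33.0 CPM and the BPH/2J mice 28.0 to 41.5 (median 38.1) CPM. All but 1 of those BPH/2J libraries lay above the BPN/3J ones, and the difference was 0.50 ± 0.10 (1.41-fold, adjusted p = 5.55e-04).

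Kcnj8 had 36.2 to 63.8 (median 44.8) CPM in BPN_vehicle and 33.5 to 44.9 (median 38.7) CPM in BPH_vehicle, overlapping groups, and differed by -0.27 ± 0.08 (0.827 times, adjusted p = 0.0118). Without BPN_vehicle replicate 7, the highest at 63.8 CPM, it was -0.20 (adjusted p = 0.0174). The call ended without the batch term, in batch 2 alone and with only the compared groups fitted (log2 differences -0.28 to -0.26, adjusted p from 0.0505 to 0.371). In the BPN/3J mice on Cmpd17b the levels were 44.4, 45.2, 45.2, 48.0 and 48.0 CPM and in the BPH/2J mice 26.4 to 41.8 (median 36.9) CPM, with no overlap, and the difference was -0.31 ± 0.09 (0.804 times, adjusted p = 0.0135). Kcnj8 is known mainly from smooth muscle cells and pericytes. The 6 pericyte markers, none at 0 in any group, summed to 529 to 925 CPM in BPN_vehicle (the highest in replicate 7), 628 to 681 in BPN_Cmpd17b, 504 to 718 in BPH_vehicle and 540 to 690 in BPH_Cmpd17b. Their medians were 604, 662, 685 and 650 CPM in the same order. These sums were mostly Rgs5, with medians of 453 CPM in BPN_vehicle and 546 CPM in BPH_vehicle. The medians of Pdgfrb, Notch3, Vtn, Cspg4 and Higd1b were lower in BPH_vehicle. The median log2 difference of the 6 was -0.28 under vehicle and -0.043 on Cmpd17b. Of these 6, Vtn was called lower in BPH/2J under vehicle and none on Cmpd17b. The 6 smooth muscle markers, none at 0 in any group, had median sums of 123 CPM in BPN_vehicle (70.9 to 221), 103 in BPN_Cmpd17b (99.8 to 166), 161 in BPH_vehicle (113 to 219) and 149 in BPH_Cmpd17b (125 to 179), higher in BPH/2J. Of these 6, none was called under vehicle by edgeR and Myh11 was called higher on Cmpd17b. Their part in the Kcnj8 value was not tested.

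Kcnj11 had 37.0 to 114 (median 96.9) CPM in BPN_vehicle, 92.2 to 121 (median 108) CPM in BPH_vehicle, 92.8, 98.8, 100.4, 101 and 104 CPM in BPN_Cmpd17b and 84.2 to 129.5 (median 111) CPM in BPH_Cmpd17b. The groups overlapped, and the vehicle difference was 0.32 ± 0.14 (adjusted p = 0.102), and 0.19 (adjusted p = 0.0165) without BPN_vehicle replicate 7, at 37.0 CPM. On Cmpd17b it was 0.19 ± 0.16 (adjusted p = 0.493). Abcc9 ranged from 161 to 300 CPM and differed by -0.08 ± 0.11 and -0.25 ± 0.13, neither past the test.

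Gja1 and Gja5 were the connexins that rose under vehicle. Gja1 encodes connexin 43, the main connexin of working ventricular muscle. It had 205 to 498 (median 429) CPM in BPN_vehicle and 481 to 606 (median 533) CPM in BPH_vehicle, where 5 of 7 libraries lay above all of BPN_vehicle. The difference was 0.38 ± 0.12 (1.30-fold, adjusted p = 0.0203), and 0.27 (adjusted p = 0.00301) without BPN_vehicle replicate 7, which at 205 CPM was the lowest of the 25 libraries. It was no longer called in batch 2 alone and with only the compared groups fitted (log2 differences 0.26 to 0.38, adjusted p from 0.0829 to 0.374). On Cmpd17b 428, 433, 454, 461 and 468 CPM stood against 435 to 596 (median 522) CPM, a difference of 0.16 ± 0.13 that did not pass the test (adjusted p = 0.513).

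Gja5 encodes connexin 40, known from the atria, the conduction system and arterial endothelium. It had 3.19 to 7.49 (median 4.76) CPM in BPN_vehicle and 5.39 to 8.25 (median 6.61) CPM in BPH_vehicle. The highest BPN_vehicle value was that of replicate 7, and 1 BPH_vehicle library lay above it. The difference was 0.45 ± 0.14 (1.36-fold, adjusted p = 0.0226), and 0.58 (adjusted p = 4.11e-04) without that library. The call ended when any of BPH_vehicle replicate 7 or BPN_vehicle replicate 1 or 6 was left out (log2 differences 0.36 to 0.40, adjusted p from 0.0508 to 0.0671), and in batch 1 alone, in batch 2 alone and with only the compared groups fitted (log2 differences 0.32 to 0.78, adjusted p from 0.0683 to 0.158). On Cmpd17b the BPN/3J mice had 3.77, 4.56, 4.91, 5.08 and 5.20 CPM and the BPH/2J mice 4.92 to 7.02 (median 6.02) CPM, with a difference of 0.35 ± 0.16 (adjusted p = 0.158). Gja5 shares 2.90% of its exon bases with the gene Gpr89 on the other strand. Of the 8 endothelial markers, none at 0 in any group, none was called in either strain comparison by edgeR. Their sums were 531 to 1393 CPM in BPN_vehicle, 599 to 691 in BPN_Cmpd17b, 480 to 685 in BPH_vehicle and 524 to 664 in BPH_Cmpd17b. Gjc1, which encodes connexin 45 of the pacemaker and conduction tissue, ranged from 12.8 to 19.1 CPM and differed by 0.03 ± 0.08 (95% interval -0.13 to 0.19) and 0.04 ± 0.09 (interval -0.14 to 0.23). The Gjc1 vehicle difference without BPN_vehicle replicate 7, its highest library, was 0.10 (adjusted p = 0.309).

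Trpm4, a calcium-activated cation channel, ranged from 13.7 to 30.8 CPM. Its difference was 0.18 ± 0.09 under vehicle (adjusted p = 0.211), 0.29 (adjusted p = 0.00175) without BPN_vehicle replicate 7, and 0.30 ± 0.11 on Cmpd17b (adjusted p = 0.0621). Trpm7, a channel with a kinase domain that carries magnesium and calcium, ranged from 33.1 to 54.3 CPM in the 25 libraries and differed by -0.11 ± 0.08 and 0.03 ± 0.10, neither past the test. In 7 further genes that were not called, leaving out BPN_vehicle replicate 7 moved the vehicle difference by over 1.5 times or turned it, and none passed the test either way. Without it Kcnip2 was at -0.03 (adjusted p = 0.816), of the opposite sign, and Cacnb2 at 0.04 (adjusted p = 0.757). Kcna5 was at -0.10 (adjusted p = 0.731), Kcnq1 at -0.12 (adjusted p = 0.244) and Abcc9 at -0.16 (adjusted p = 0.183). Cacna1g was at 0.24 (adjusted p = 0.153) and Trpm7 at -0.02 (adjusted p = 0.891).

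**Figure D3:**
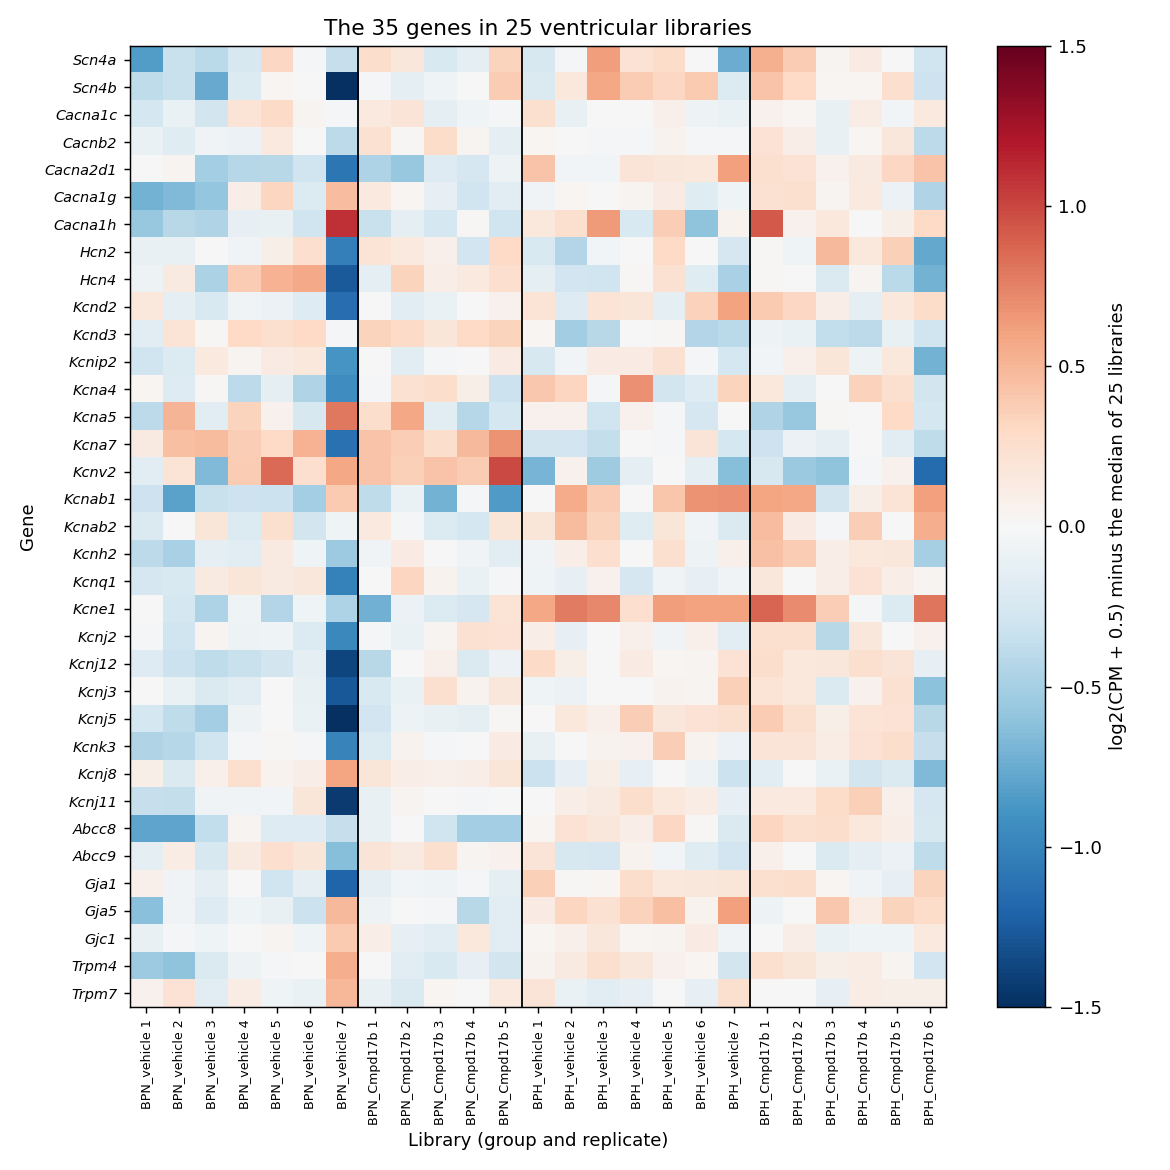
Level of each of the 35 genes (vertical axis, grouped by current) in each of the 25 libraries (horizontal axis), as log2(CPM + 0.5) minus the median over the libraries. Vertical lines separate the 4 groups. BPN_vehicle replicate 7 forms a column of its own, lowest of its group for 19 genes and highest for 9.

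Cmpd17b called none of the 35 genes in either strain by edgeR's adjusted test, and none of the 15543 genes tested (0%). At an unadjusted p under 0.05, 0 of the 35 genes and 1.85% of all genes passed in BPH/2J, and 2 of the 35 and 9.69% of all genes passed in BPN/3J. For none of the 35 genes were the vehicle and Cmpd17b libraries of a strain without overlap, where that held for 0.0772% of all genes in BPH/2J and 0.341% in BPN/3J. DESeq2 and limma voom also called 0 of the 35 genes in each strain, and over all genes DESeq2 called 1 in BPN/3J. These comparisons use the same vehicle libraries as the strain comparison under vehicle. The 2 genes below the unadjusted threshold were the inward rectifiers: in BPN/3J Kcnj12 differed by 0.30 ± 0.14 (unadjusted p = 0.0388, adjusted p = 0.514) and Kcnj2 by 0.28 ± 0.13 (unadjusted p = 0.0438, adjusted p = 0.514). Both values rest in part on BPN_vehicle replicate 7, the lowest vehicle library for each. Without it they were 0.16 (adjusted p = 0.849) and 0.16 (adjusted p = 0.853).

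The 95% intervals bound what the drug comparisons could have missed. In BPH/2J the interval lay within a change of 1.5-fold (0.585 on the log2 scale) in either direction for 33 of the 35 genes, all but Cacna1h and Kcnab1. The L-type pore Cacna1c differed by 0.02 ± 0.09 there (interval -0.17 to 0.21), the connexin 43 gene Gja1 by -0.02 ± 0.12 (-0.27 to 0.23), and Kcnd3 by 0.01 ± 0.11 (-0.21 to 0.23). Kcne1, whose strain call under vehicle held under every alternative run, differed by -0.12 ± 0.16 on Cmpd17b in BPH/2J (-0.45 to 0.22). In BPN/3J, where 5 mice received the drug, the interval lay within 1.5-fold for 29 of the 35 genes.

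The difference between the 2 drug effects, BPH/2J minus BPN/3J, was called for 0 of the 35 genes and 0% of all genes by edgeR, and no gene of the 35 and 3.83% of all genes had an unadjusted p under 0.05. DESeq2 and limma voom also called 0 of the 35. Its interval lay within 1.5-fold for 20 of 35 genes. Apart from Cacna1h, the difference farthest from 0 was that of Kcna4, -0.58 ± 0.29 (interval -1.17 to 0.01), with 0.43 ± 0.22 in BPN/3J and -0.15 ± 0.20 in BPH/2J.

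**Figure D4:**
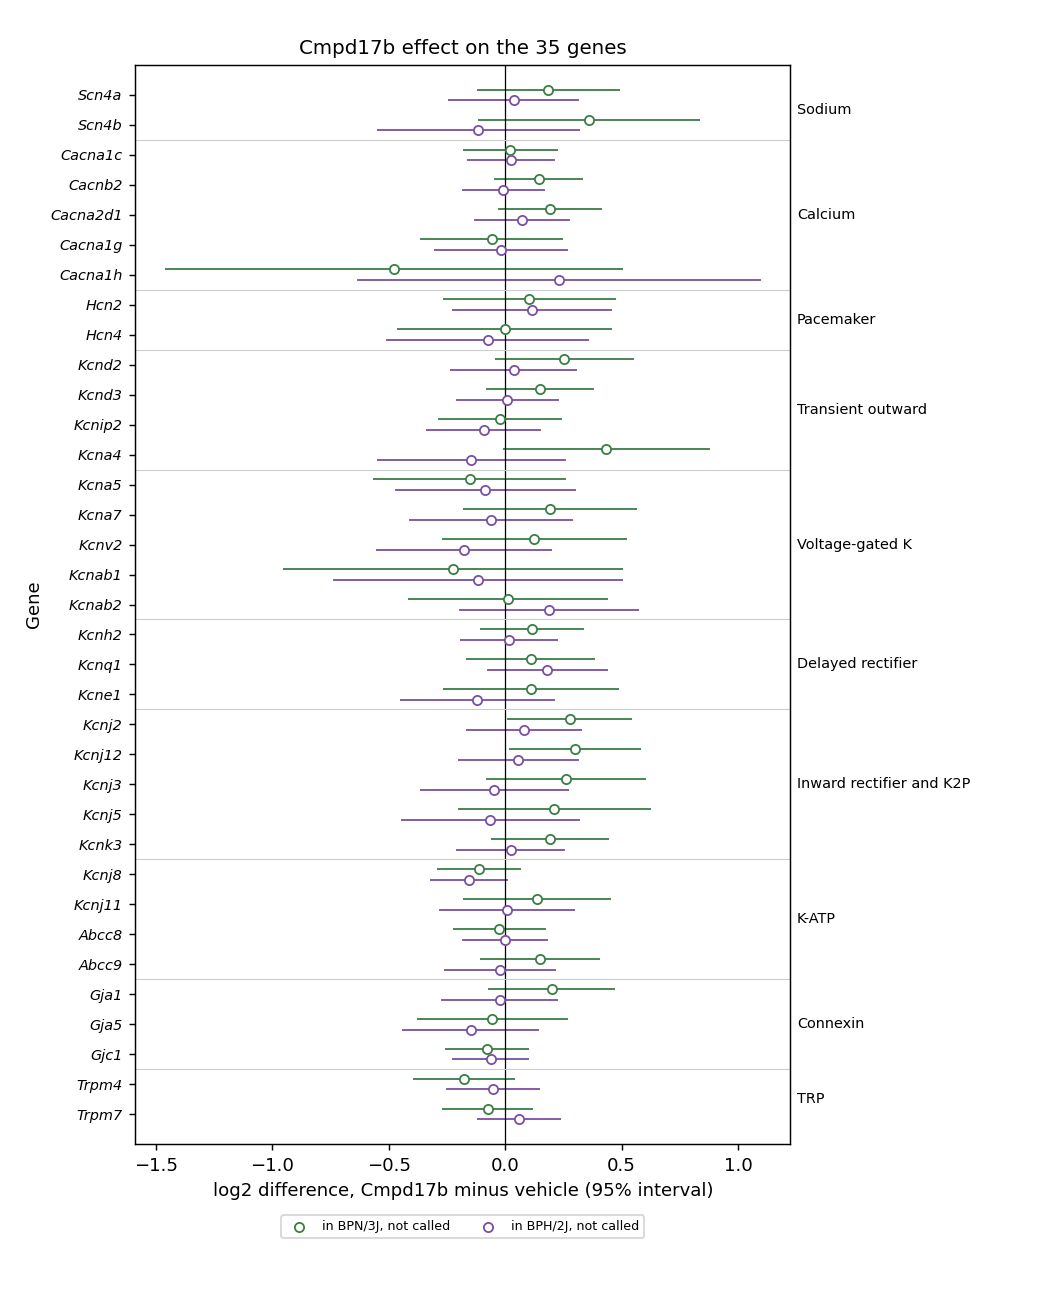
Log2 difference between Cmpd17b and vehicle for each of the 35 genes (vertical axis, grouped by current), with 95% intervals, in BPN/3J (green) and BPH/2J (purple). All points are open because none passed adjusted p under 0.05. Kcnj2 and Kcnj12 in BPN/3J have intervals that lie just above 0, and Cacna1h has the widest intervals.

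Levels were compared between genes after division by exon length (GENCODE M21, build GRCm38, which is not the build of the counts). Gja1 was the most abundant per length, at a mean of 142 CPM per kilobase over the 4 group means, followed by Kcnip2 at 77.2, Kcnk3 at 62.8, Kcnj11 at 32.1, Abcc9 at 29.5 and Scn4b at 22.4. Within the fast transient outward current, the partner Kcnip2 stood at 77.2 CPM per kilobase and the pores Kcnd2 and Kcnd3 at 2.94 and 1.42. The Kcnd2 and Kcnd3 group means were 2.46 and 1.55 CPM per kilobase in BPN_vehicle and 3.26 and 1.19 in BPH_vehicle. Within the KATP channels, Kcnj11 (32.1) and Abcc9 (29.5) stood above Kcnj8 (16.5) and Abcc8 (6.42). In the slow delayed rectifier, Kcnq1 stood at 10.7 and Kcne1 at 1.96. Kcnab1 (0.271) and Cacna1h (0.0668) were the least abundant.

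**Figure D5:**
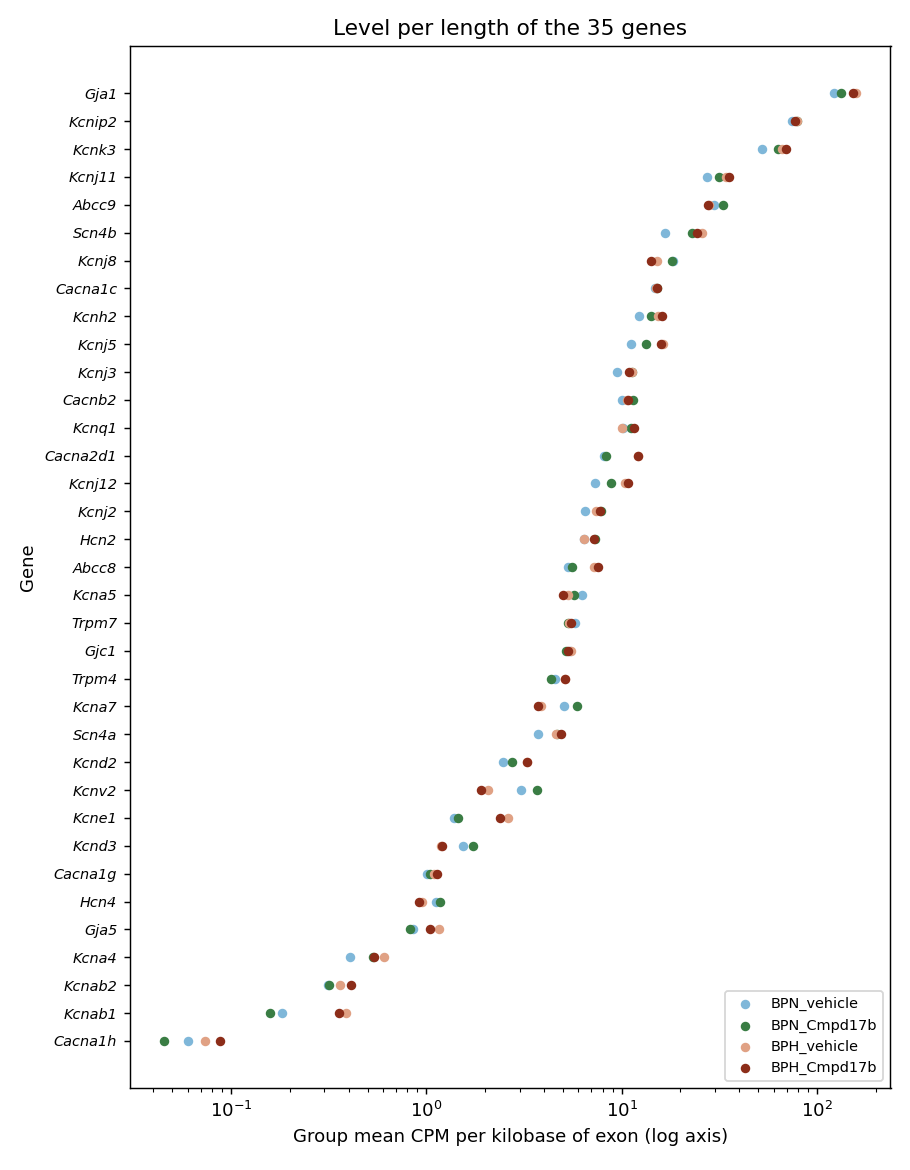
Group mean CPM per kilobase of exon (horizontal log axis) of the 35 genes in order of their mean level, with 1 point for each of the 4 groups. Gja1 is at the top and Cacna1h at the bottom, and the 4 points of a gene lie close together beside the range between genes.

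Whether partner subunits varied together from mouse to mouse was described for 10 pairs over the 25 libraries, as deviations of log2(CPM + 0.5) from the group means, with p-values from 100000 permutations within groups adjusted over the 10 pairs. Kcnj3 and Kcnj5 had Pearson r = 0.895 (permutation p = 1.60e-04, adjusted p = 0.0016) and Spearman rho = 0.751 (permutation p = 3.80e-04, adjusted p = 0.0038). Without the 2 libraries farthest from the median, BPH_Cmpd17b replicate 6 and BPN_vehicle replicate 7, r was 0.624. With group means taken over the remaining 23 libraries, r was 0.494 (adjusted permutation p = 0.0547), so the size of the relation rests on those libraries. Kcnj11 and Abcc8 had r = 0.333 (permutation p = 0.264, adjusted p = 0.413) and rho = 0.593 (permutation p = 0.00466, adjusted p = 0.0233), and r was 0.616 without BPN_vehicle replicates 6 and 7. Kcnj11 and Abcc9 had r = 0.689 (permutation p = 0.0122, adjusted p = 0.0612) and rho = 0.383 (permutation p = 0.107, adjusted p = 0.268), and r fell to 0.327 without the same libraries, so that relation rests on them. For the Kcnj11 pairs, the r values without those libraries used group means that still included them. For Kcnq1 and Kcne1 r was 0.121 and rho 0.1, and for Kcnd2 and Kcnip2 r was 0.293 and rho -0.011. These 2 pairs and the other 5 had adjusted p-values of 0.197 or more on either measure. Libraries differ in their mix of cells, which such deviations share.

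Further channel genes outside the set were counted from a list of 84, of which 66 were tested. Under vehicle 20 of the 66 were called (30.3% against 18.9% of all genes), 10 in each direction, and on Cmpd17b 13 higher and 6 lower (28.8% against 14.1%), with 0 in either drug comparison by edgeR. Their median log2 difference was 0.0077 under vehicle and 0.0064 on Cmpd17b. Kcnq5, a pore of the M-current family, differed by 2.98 ± 0.38 and the background channel Kcnk1 (TWIK-1) by 2.73 ± 0.37, from 0.157 and 0.249 CPM in BPN_vehicle to 1.31 and 1.66 CPM in BPH_vehicle.

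On Cmpd17b Kcnk1 differed by 3.07 ± 0.42 and Trpv4, a mechanically and osmotically gated cation channel, by 1.16 ± 0.17. Markers of Schwann cells and neurons also differed: 3 of 4 tested (Cdh19, S100b and Sox10) were called higher in BPH/2J under vehicle and 2 on Cmpd17b. Their summed levels were 4.38 to 10.8 CPM in BPN_vehicle, 5.15 to 6.41 in BPN_Cmpd17b, 7.36 to 14.7 in BPH_vehicle and 6.30 to 10.4 in BPH_Cmpd17b, with none of the 6 markers found in the table at 0. Their part in the Kcnq5 and Kcnk1 values was not tested. In BPN_vehicle, hepatocyte markers summed to as much as 520 CPM in replicate 2, against 4.04 or less in the libraries of the other groups.

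Of 31 tested genes that anchor channels or build the intercalated disc, 5 were higher and 1 lower under vehicle (19.4% against 18.9% of all genes), and 2 and 1 on Cmpd17b (9.68% against 14.1%), so the list was near or below the share of all genes. Rem1, a small GTPase that restrains L-type calcium channels, rose by 0.84 ± 0.14 under vehicle and 0.89 ± 0.16 on Cmpd17b. Akap9, the anchor that ties protein kinase A to the KCNQ1 and KCNE1 channel, rose by 0.54 ± 0.10 and 0.43 ± 0.11. Under vehicle the desmosomal cadherin Dsg2 rose by 0.47 ± 0.10 and Gpd1l, which acts on sodium channel trafficking, by 0.50 ± 0.12, and on Cmpd17b the desmosomal Dsc2 differed by -0.46 ± 0.10.

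Of 20 tested transcription factors of the conduction system and the ventricle, 4 were called in each strain comparison, 1 higher and 3 lower, where 18.9% of all genes were called under vehicle and 14.1% on Cmpd17b. Irx3, a homeobox factor of the fast conduction system, differed by -0.69 ± 0.15 and -0.73 ± 0.17. Irx5, which in mouse ventricle is known to repress Kcnd2 across the wall, differed by -0.54 ± 0.17 under vehicle (edgeR adjusted p = 0.0284). Its level was 7.31 ± 1.73 CPM in BPN_vehicle and 5.08 ± 0.87 CPM in BPH_vehicle (SD, n = 7 each). Irx5 was not called on Cmpd17b, and its part in the Kcnd2 value was not tested. Shox2, a pacemaker factor, differed by 1.57 ± 0.39 and 2.24 ± 0.47, with group means from 0.126 to 0.654 CPM. Hand2 differed by -0.48 ± 0.12 and -0.80 ± 0.14, and Tbx5 by -0.38 ± 0.12 on Cmpd17b.

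Of 14 tested sodium, potassium and proton pumps and exchangers, 1 was higher and 2 lower under vehicle (21.4% against 18.9% of all genes), and 1 and 1 on Cmpd17b (14.3% against 14.1%), shares near those of all genes. Slc12a2, the sodium-potassium-chloride cotransporter NKCC1, had the smallest p of the 4 lists. It stood at 51.2 ± 10.4 CPM in BPN_vehicle, 45.7 ± 2.40 in BPN_Cmpd17b, 25.1 ± 3.45 in BPH_vehicle and 23.3 ± 3.65 in BPH_Cmpd17b (SD), and differed by -1.02 ± 0.08 under vehicle (SE, edgeR adjusted p = 5.84e-11) and -1.05 ± 0.09 on Cmpd17b. Fxyd1, which encodes the sodium pump regulator phospholemman, differed by -0.25 ± 0.08 under vehicle, and Fxyd5 by 0.74 ± 0.19 on Cmpd17b.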

How the data were processed

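By the labels, the 26 libraries came from polyadenylated RNA of left ventricles and fall in 2 batches. The library labelled BPH_Cmpd17b replicate 7 was kidney-like. The submitters' processing notes name Trim Galore 0.6.7 and STAR 2.7.9a, with GRCm39 (mm39) as the genome. No label names the counter, the annotation or whether strand was used. The authors deposited a single table of expected counts for 40413 genes. Whole numbers made up 93.3% of its values, 2.21% differed from the nearest integer by over 0.01, and all were rounded before testing. Every column matched a sample.

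The 35 genes, the related gene lists and the markers were chosen with earlier results of these data known. All 35 genes are named. Those called in a comparison, the main ventricular pores and connexin 43 are given with values in every group, and the others by their range. From each related list up to 4 called genes with the smallest p are named, apart from some that are not reported here.

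Group membership follows the strain and treatment labels. Titles carry a different animal identifier for each library, which was read as 1 mouse per library, and replicates were numbered in sample order. After filterByExpr (15543 of 40413 genes kept) and TMM scaling, edgeR 4.0.16 in R 4.3.3 fitted 25 libraries with a term for each group and one for batch, and its robust quasi-likelihood F-test was applied to all genes, with Benjamini-Hochberg adjustment and a threshold of 0.05. Because BPN_Cmpd17b has no batch 2 library, its batch term rests on the other groups. Standard errors are the size of the log2 difference divided by the square root of F. The same fit was also run on simulated data, with the outcome not reported here. Alternatives were RLE size factors, DESeq2 1.42.0, voom of limma 3.58.1 with quality weights, leaving genes unfiltered, a filter of 1 CPM in 5 libraries, omission of the batch term, single batches, the compared groups alone, 26 or 23 libraries, and removal of 1 library at a time. Promoters are RefSeq entries of GRCm38.p6 and exon lengths come from GENCODE M21 (GRCm38). Neither is the build of the counts.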

Additional observations from a re-analysis of the deposited data

Results flagged for a closer look

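The gap between the highest or lowest library and its nearest neighbour, taken as a share of the group's whole range, was large for 22 of the 140 sets formed by a gene and a group (35 genes in 4 groups). Chance gives about 1 in 20, which is 7.0 of 140. Of the 22, 13 belong to a single library, BPN_vehicle replicate 7. Its level was far below the rest of its group for Gja1 (205 CPM, next 385), Hcn2 (10.4, next 20.1), Kcna7 (3.997, next 10.2), Kcnd2 (6.33, next 12.4), Kcnj12 (9.88, next 20.2), Kcnj2 (20.5, next 32.9), Kcnj3 (23.4, next 49.01) and Kcnj5 (16.8, next 46.9). It was far above the rest for Cacna1h (1.64 CPM, next 0.426), Gja5 (7.49, next 4.99), Gjc1 (19.1, next 14.8), Kcnab1 (1.23, next 0.565) and Trpm4 (30.8, next 21.0). Its endothelial, pericyte and fibroblast markers summed to 1393, 925 and 2817 CPM, against group medians of 619, 604 and 1839. Their part in these levels was not tested.

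BPH_Cmpd17b replicate 6 was far below its group for Kcnip2 (121 CPM, next 187), Kcnj12 (24.3, next 29.6) and Kcnk3 (191, next 262), and its atrial markers summed to 2562 CPM against a group median of 602. Of that sum 2546 CPM was Nppa, while Myl7 reached at most 1.18 CPM and Sln at most 0.728 CPM in any library of the group. Its fibroblast markers summed to 2148 CPM, the highest of the group (median 1631). Among them Col1a1 was at 305 CPM (median 58.0) and Col3a1 at 746 CPM (median 154), while Dcn and Gsn were highest in replicate 4. The part of these markers in its levels was not tested. The other values that stood apart were Cacna1h in BPH_Cmpd17b replicate 1 (1.40 CPM, the highest), Kcne1 in BPH_vehicle replicate 4 (6.46, the lowest), Kcnj3 in BPH_vehicle replicate 7 (73.1, the highest), Kcnk3 in BPH_vehicle replicate 5 (313, the highest), and Kcnv2 and Scn4b in BPN_Cmpd17b replicate 5 (25.8 and 144, both the highest).

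In the kidney-like library that the comparisons leave out, Trpm7 stood at 115 CPM, above the highest value of the 25 other libraries, 54.3 CPM.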

How the results depend on the processing

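Counts of the 35 genes called are given with the share of all genes tested that was called under the same setting. Under vehicle the count was 16 (18.9% of all genes). It was 2 with all 26 libraries, the kidney-like one kept (9.59%), 8 with batch 1 only (15.6%), 6 with batch 2 only (7.88%) and 8 with the compared groups fitted alone (15.3%). Leaving out each library in turn gave 10 (without BPH_vehicle replicate 7, 18%) to 20 (without BPN_vehicle replicate 7, 24.2%). RLE size factors gave 16 (19%), DESeq2 16 (21.1%), the filter of 1 CPM in 5 libraries 16 (19.9%), voom 20 (26.7%), no filter 13 (10.3%), no batch term 12 (16.4%) and 23 libraries 21 (25.8%). On Cmpd17b the count was 8 (14.1%). It was 1 with all 26 libraries (7.68%) and 14 with 23 libraries (19.1%), with voom (21.9%) or with the compared groups fitted alone (19.9%), while omitting 1 library at a time gave 6 (12.1%) to 9 (12.8%). The drug comparisons and their difference gave 0 under every alternative run. Of 10 subunit pairs, 1 passed on Pearson's r in 25 libraries and 0 in 23. The causes of these changes were not tested. No called gene changed sign under any alternative. No paired analysis was possible because the labels give each mouse its own identifier and no replicate number shared between groups. No comparison on Cmpd17b could be made within batch 2, which holds no BPN_Cmpd17b library. Genes near 1 CPM or below, such as Kcnab1 and Cacna1h, had the widest intervals. Removal of 1 library ended the vehicle calls of Kcna4, Scn4b, Kcnk3, Gja5, Kcnj5, Kcnd2, Kcnv2 and Kcnh2. On Cmpd17b it ended those of Kcnab1 and Kcna7.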

Other observations

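The library labelled BPH_Cmpd17b replicate 7, whose leading markers were those of kidney, gives levels of the 35 genes in a sample that belongs to no comparison. Potassium channel genes known from epithelia were present: the KvLQT1 pore gene Kcnq1 at 14.4 CPM (558 counts) and its accessory subunit Kcne1 at 6.28 CPM (243 counts). Abcc9, the SUR2 receptor gene, stood at 13.8 CPM and the calcium-activated Trpm4 at 7.62 CPM. Scn4b stood at 37.7 CPM (1458 counts). Among the genes at low levels were Cacna1c and Kcnip2 at 1.11 CPM each, Kcnj11 at 0.568 CPM and Kcnk3 at 0.387 CPM. Abcc8 was at 0.129 CPM (5 counts) and Kcnj3 at 0.0517 CPM (2 counts). No replicate of this library exists among those analysed here.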
